A study of Arabidopsis thaliana with 4 samples.

Results

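The genes described here are nuclear genes of photosynthesis in whole Arabidopsis seedlings that overexpress the peptide RALF1. A gene was taken when a probe set of the array is named for it alone and its symbol begins with LHCA, LHCB, PSA, PSB, PETC, PETE, RBCS, GAPA, GAPB, FBA or PRK, or is RCA. That gave 10 genes, each with 1 probe set, of 13355 genes with a probe set of their own. They are 3 antenna genes (LHCB4.1, LHCB4.2 and LHCB4.3), 5 photosystem genes (PSAE-1, PSAN, PSBW, PSBY and PSB27) and 2 carbon fixation genes (RCA and PRK). A further 20 genes meet the symbol rule but lie in the plastid genome, and they are given only for comparison. Genes of the LHCA, PETC, PETE, RBCS, GAPA, GAPB and FBA families were not analysed here, since the probe table names no probe set for any of them singly.

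The data are 4 Affymetrix arrays of 1-week-old seedlings raised upright on agar (24 °C, days of 16 h), the sown seed having first been chilled for 48 h. The 35S:AtRALF1 group has 2 arrays, and its RNA was an equal mixture of a pair of transgenic lines (35S:AtRALF1-1-I and 35S:AtRALF1-1-II) in which the near-ubiquitous 35S promoter of cauliflower mosaic virus drives AtRALF1. The control group has 2 arrays, each an equal mixture of RNA from wild-type seedlings and from wild-type seedlings carrying the empty vector pART27. The arrays of a group are numbered as repeat 1 and repeat 2. Whether these numbers stand for separate plantings is not in the labels, and a p-value here reflects no more than how far these 4 samples scatter, possibly for technical reasons. Mixing a pair of lines also hides any difference between them.

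In the thylakoid membrane, antenna proteins bind chlorophyll and pass light energy to photosystems I and II, which drive electron transport. The ATP and NADPH that result are used in the stroma by the Calvin cycle, in which Rubisco fixes carbon dioxide. Each photosystem is assembled from subunits of both genomes, with the reaction centre proteins encoded in the plastid and the antenna and many small subunits in the nucleus. The nuclear genes are known for high expression in green tissue and for control by light and the circadian clock. In whole seedlings, a smaller share of green cells and less RNA per green cell cannot be told apart.

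Each value is a linear signal intensity, which the authors had scaled to the same trimmed mean in every array. Median signals were 48.5 and 42.0 in the 35S:AtRALF1 arrays and 50.5 and 46.1 in the control arrays. Of the 10 genes, 9 had a mean signal between 3694 (PSB27) and 9087 (RCA), within the brightest 159 of 22746 probe sets. LHCB4.3 stood far below, at rank 3941 with a mean of 203.9. Differences are given as log2 fold changes on the log2(signal + 16) scale, from limma with each standard error, and p-values are adjusted over all 22746 probe sets.

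No member passed the test between the genotypes. The arrays of the genotypes did not overlap for 4 of the 10, with 3 lower and 1 higher in 35S:AtRALF1. Of all 22746 probe sets, 4121 were lower without overlap and 3021 higher. Over all probe sets, limma called 0 (0%) at an adjusted p under 0.05 and 980 (4.31%) at an unadjusted p under 0.05, and of the 10 members it called 0 at either. The smallest adjusted p among the members was 0.987. The smallest p of an exact permutation test of 2 arrays against 2 is 0.333. As a description, 9 of the 10 genes had log2 fold changes below 0 (7 with quantile or cyclic loess normalization, where LHCB4.1 and PSBW turned positive) and the median over the 10 was -0.15, where 12716 of 22746 probe sets were negative with a median of -0.04. Among the 159 probe sets as bright as these genes, 116 were negative and the median was -0.06. In both repeats taken apart, 7 of the 10 were lower in 35S:AtRALF1 seedlings, against 31.5% of all probe sets and 62 of the 159 equally bright ones. For 3 of the 10 both 35S:AtRALF1 signals lay below both control signals, against 18.1% of all probe sets.

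**Figure D1:**
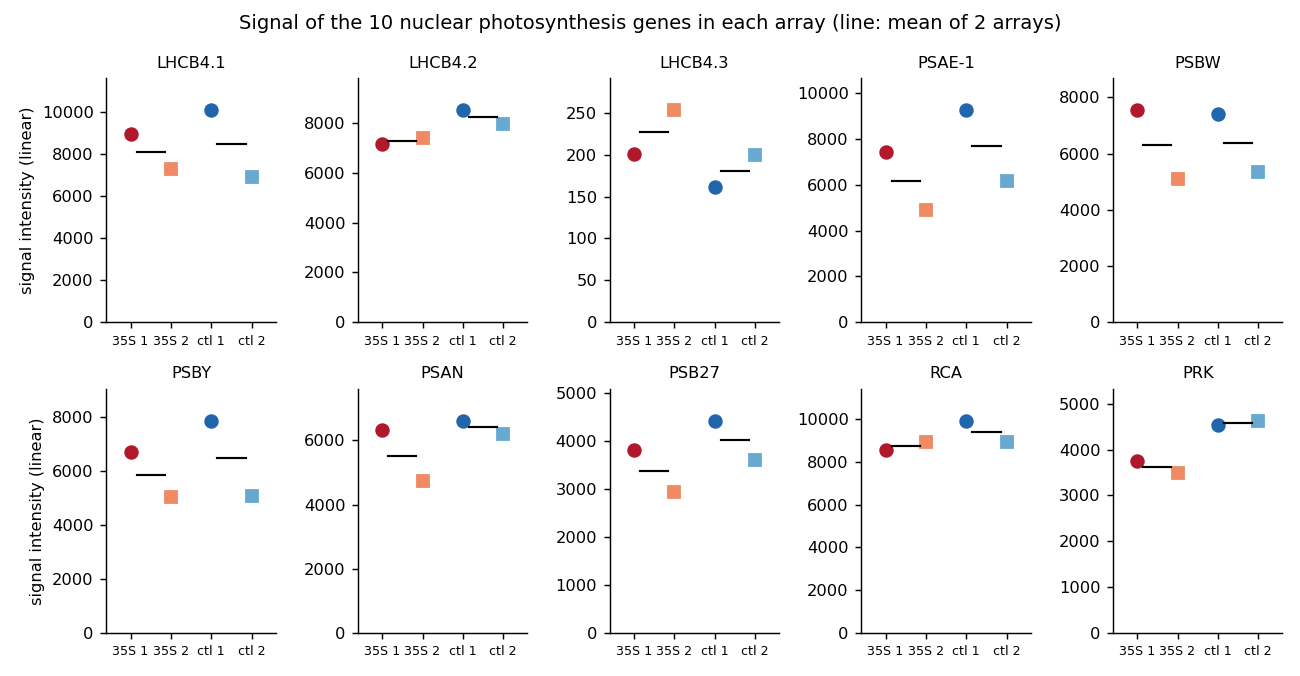
Linear signal intensity of the 10 genes in each array, with the 35S:AtRALF1 arrays (35S 1 and 35S 2, first and second repeat) left of the control arrays (ctl 1 and ctl 2). Circles are first repeats, squares second repeats and lines the mean of the 2 arrays. The 5 photosystem genes and LHCB4.1 have both squares below both circles.

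The antenna genes all encode CP29, the monomeric antenna protein that links the outer antenna of photosystem II to its core. They did not move together. LHCB4.1 had signals of 8909 and 7260 in the 35S:AtRALF1 arrays and 10061 and 6883 in the control arrays, first repeat before second. The groups overlapped, and the sign differed between the repeats (log2 fold change of -0.18 in repeat 1, 0.08 in repeat 2). Its overall log2 fold change was -0.05 (standard error 0.36), and it turned to 0.03 with quantile normalization and 0.04 with cyclic loess.

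LHCB4.2 had signals of 7157 and 7398 in 35S:AtRALF1 and 8524 and 7972 in the control. Both transgenic arrays were below both control arrays, with means of 7277 ± 170 and 8248 ± 390 (SD, n = 2 each), and limma gave -0.18 ± 0.30 (log2 fold change ± standard error) at an adjusted p of 0.995. LHCB4.3, the most divergent of the 3 CP29 genes, ran the other way. It had signals of 201.3 and 253.2 in 35S:AtRALF1, both above the 161.6 and 199.6 of the control. The means were 227 ± 36.7 and 181 ± 26.9 (SD, n = 2 each), and limma gave a log2 fold change of 0.31 ± 0.25 at an adjusted p of 0.987. In the first repeat its log2 fold change was 0.29 and in the second 0.32. It was thus the 1 member with a positive value, and the 1 member outside the brightest probe sets.

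Among photosystem genes all 5 had negative log2 fold changes as deposited, with a median of -0.23 (PSBW turned positive under both other normalizations), and in none did the 35S:AtRALF1 arrays lie apart from the control arrays. PSAE-1, a stromal subunit of photosystem I at the site where ferredoxin docks, had signals of 7427 and 4906 in 35S:AtRALF1 and 9257 and 6155 in the control. Within each repeat the transgenic array was lower by nearly the same amount, -0.32 in the first and -0.33 in the second, but the repeats lay farther apart than the genotypes (log2 fold change -0.32 ± 0.40, adjusted p = 0.987 from limma). PSAN, the lumenal subunit of photosystem I that helps to bind plastocyanin, had signals of 6321 and 4721 in 35S:AtRALF1 and 6607 and 6214 in the control. The second 35S:AtRALF1 array stood below the other 3, and the difference was -0.06 in the first repeat and -0.40 in the second.

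Of the photosystem II genes, PSB27, a lumenal factor of assembly and repair, had signals of 3813 and 2942 in 35S:AtRALF1 and 4412 and 3608 in the control. The transgenic array was lower in both repeats, with log2 fold changes of -0.21 and -0.29 (overall -0.25, standard error 0.30, adjusted p = 0.987 from limma). PSBY, a small membrane protein of the complex, had signals of 6701 and 5010 in 35S:AtRALF1 and 7838 and 5058 in the control, with a difference of -0.23 in the first repeat and -0.01 in the second. PSBW, a small subunit that stabilizes photosystem II supercomplexes, had signals of 7542 and 5089 in 35S:AtRALF1 and 7409 and 5331 in the control. Its 2 genotypes were nearly level (means of 6316 ± 1734 and 6370 ± 1469, SD, n = 2 each), and the log2 fold change of -0.02 turned to 0.03 with quantile normalization and 0.05 with cyclic loess. The median of the 5 was -0.21 in the first repeat and -0.29 in the second, where the 159 equally bright probe sets had medians of -0.18 (142 of them below 0) and 0.04 (70 below 0). Since the repeats differed, it depended on which array was left out: leaving out the first 35S:AtRALF1 array gave -0.44 and leaving out the second gave -0.020, while omission of the first control array gave -0.028 and of the second -0.40.

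Both carbon fixation genes had their 35S:AtRALF1 arrays below their control arrays. PRK, phosphoribulokinase, which makes the acceptor that Rubisco carboxylates, had signals of 3757 and 3493 in 35S:AtRALF1 and 4539 and 4628 in the control. The arrays of each genotype lay close together, with means of 3625 ± 187 and 4584 ± 63.4 (SD, n = 2 each), a difference of -20.9%. Its log2 fold change of -0.34 (standard error 0.26) was the most negative of the 10 and had their smallest unadjusted p, and still an adjusted p of 0.987 from limma. Counted from the most negative, it held rank 4227 of the 22746 probe sets. RCA, Rubisco activase, which frees Rubisco of inhibitory sugar phosphates, had signals of 8572 and 8916 in 35S:AtRALF1 and 9926 and 8933 in the control. Its lead in the control rested on the first control array, since the second repeats differed by less than 0.01 on the log2 scale (overall -0.11, standard error 0.31, adjusted p = 0.997 from limma).

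**Figure D2:**
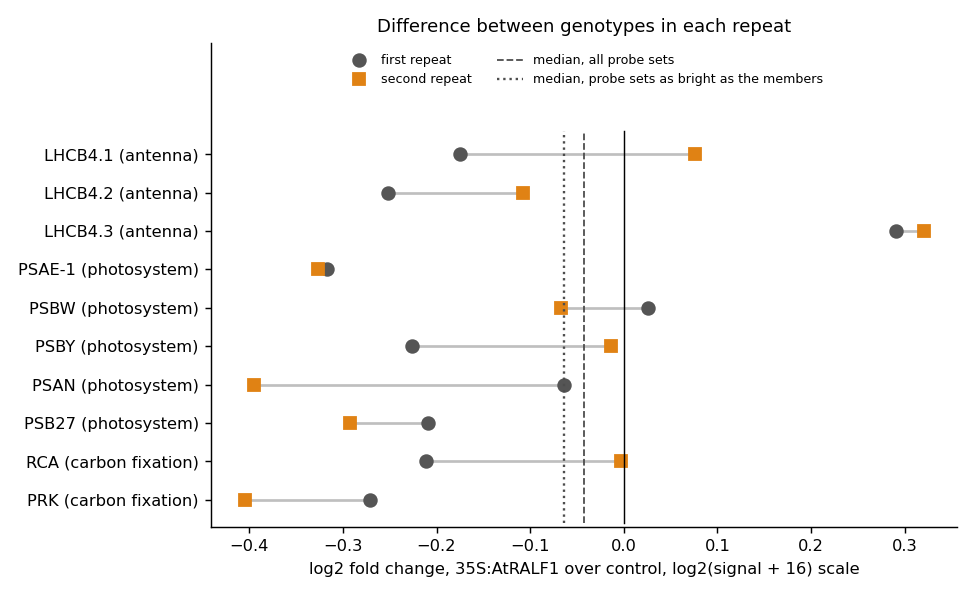
Log2 fold change of 35S:AtRALF1 over control in the first repeat (circles) and in the second repeat (squares) for the 10 genes, on the log2(signal + 16) scale. Dashed and dotted lines are the overall medians of all probe sets (-0.04) and of the 159 probe sets as bright as these genes (-0.06, against -0.18 in the first repeat alone and 0.04 in the second alone). LHCB4.3 is the 1 gene to the right of 0 in both repeats, and LHCB4.1 and PSBW have a point on each side.

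Between the repeats the photosystem median stood apart from those of the other groups, and the antenna genes did not move together. Each repeat holds an array of each genotype, so the second was compared with the first in a limma fit with a term for genotype. Over all probe sets this fit called 0 (0%) at an adjusted p under 0.05 and 3042 (13.4%) at an unadjusted p under 0.05, and 0 of the 10 members at either. The median log2 fold change, second over first repeat, was -0.52 for the 5 photosystem genes. Taken apart by genotype, their median was -0.42 in 35S:AtRALF1 and -0.47 in the control. For both genotypes together, the median was -0.04 for the pair of carbon fixation genes and -0.02 for the 3 antenna genes. All probe sets had a median of -0.03 and the 159 equally bright ones a median of 0.06. In both genotypes 6 of the 10 members were lower in the second repeat, against 33.5% of all probe sets. Those 6, the photosystem genes and LHCB4.1, were also the members with both second-repeat signals below both first-repeat signals, against 24.7% of all probe sets.

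Summed over the 5 photosystem genes, the signal was 22669 and 26366 in the second repeat (35S:AtRALF1 and control) and 31804 and 35522 in the first. PSAE-1 averaged 5531 in the second repeat and 8342 in the first, a difference of -33.7% (log2 fold change -0.59 ± 0.27, adjusted p = 0.423 from limma). The difference was -0.60 in 35S:AtRALF1 and -0.59 in the control. PSBW had a log2 fold change of -0.52 and PSBY also one of -0.52 (adjusted p = 0.463 and 0.462 from limma). PSB27 had -0.33, and PSAN -0.25, where the control alone gave -0.09. In 4 of the 5 (PSAE-1, PSAN, PSBY and PSB27) the arrays had a single order from high to low: first control, first 35S:AtRALF1, second control, second 35S:AtRALF1. That order was found in 8.38% of all probe sets.

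The antenna genes again went separate ways between the repeats. LHCB4.1 averaged 7072 in the second repeat and 9485 in the first (log2 fold change -0.42 ± 0.29, adjusted p = 0.565 from limma). LHCB4.2 differed by -0.02, with opposite signs in the genotypes, and LHCB4.3 by 0.29, being higher in the second repeat by 0.31 in 35S:AtRALF1 and by 0.28 in the control. Without LHCB4.3 the antenna median, second over first repeat, was -0.22. RCA and PRK were level between repeats, at -0.05 and -0.04, and each had opposite signs in the genotypes. For PRK the log2 fold change between the genotypes, -0.34, was thus larger in size than that between the repeats. The same held for RCA and LHCB4.2, and narrowly for LHCB4.3 (0.31 between the genotypes and 0.29 between the repeats). For LHCB4.1 and all 5 photosystem genes the reverse held.

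**Figure D3:**
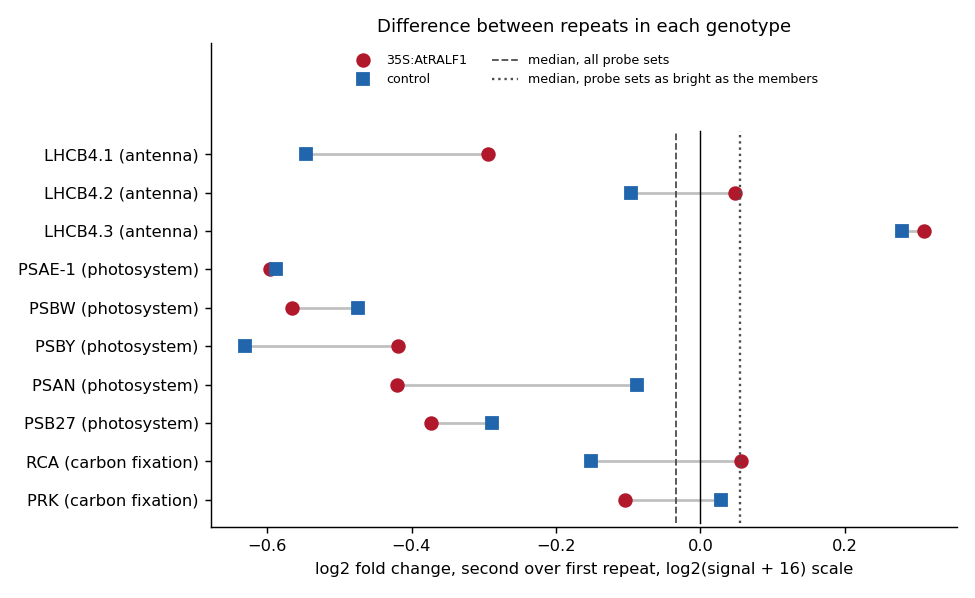
Log2 fold change of the second over the first repeat in 35S:AtRALF1 (circles) and in the control (squares) for the 10 genes, on the log2(signal + 16) scale. Dashed and dotted lines are the overall medians of all probe sets (-0.03) and of the 159 probe sets as bright as these genes (0.06). All photosystem genes lie left of both lines in both genotypes.

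Chlorophyll synthesis, which supplies the pigment of these complexes, held the most negative repeat difference on the array. Of 23 listed genes of this pathway, 7 had a probe set of their own. PORB, a protochlorophyllide oxidoreductase that needs light for its reaction, had signals of 87.6 and 125.6 in the second repeat (35S:AtRALF1 and control) and 2228 and 1655 in the first. The difference was -94.5%, a log2 fold change of -4.00 (standard error 0.27), the most negative of 22746 probe sets. The adjusted p was 0.125 from limma over all probe sets, and 9.68e-05 when the 13647 brightest were tested, where 750 probe sets were called in all (5.50%), 468 of them lower and 282 higher in the second repeat. The genotypes of PORB overlapped (log2 fold change of -0.01, standard error 1.87).

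CHLI2, a subunit of magnesium chelatase, had signals of 92.9 and 186.7 in the second repeat and 287.0 and 289.1 in the first (log2 fold change of -1.03, adjusted p = 0.271 from limma). HEME2, a uroporphyrinogen decarboxylase, had 516.8 and 557.8 in the second repeat and 909.3 and 920.4 in the first (log2 fold change of -0.75, adjusted p = 0.251 from limma). In all, 5 of the 7 were lower in the second repeat in both genotypes, against 33.5% of all probe sets. Their median was -0.39, with all 7 counted, and 0 passed the test over all probe sets. Among the 13647 brightest, limma called PORB alone of the 7. Between the genotypes 5 of the 7 were below 0, against 55.9% of all probe sets, and the median was -0.06.

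**Figure D4:**
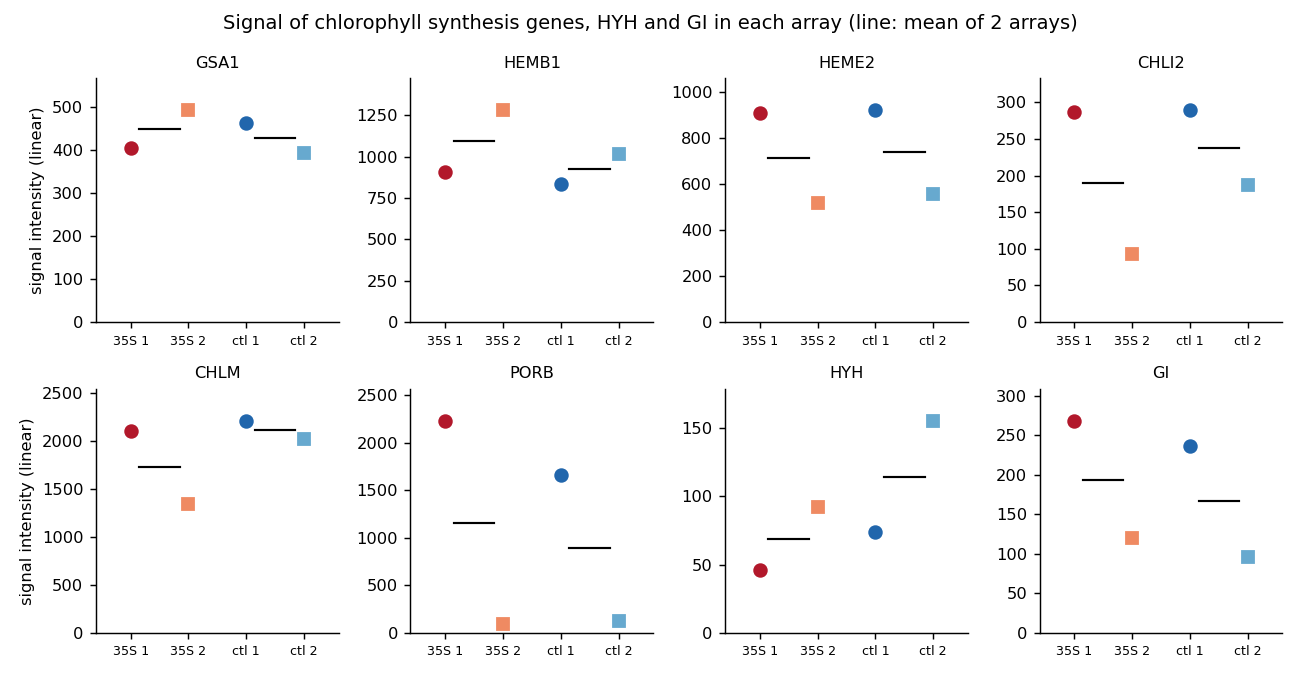
Linear signal intensity of 6 chlorophyll synthesis genes, of HYH and of GI in each array, with 35S:AtRALF1 arrays left of control arrays. Circles are first repeats, squares second repeats and lines the mean of the 2 arrays. PORB has signals of 87.6 and 125.6 in the second repeat, against 2228 and 1655 in the first.

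Of the light and clock regulators listed, few had a probe set of their own: 1 of 22 light regulators, 1 of 10 evening clock genes and 0 of 5 morning clock genes. GI (GIGANTEA), a clock protein with its peak late in the day, had signals of 119.5 and 95.4 in the second repeat (35S:AtRALF1 and control) and 267.9 and 236.7 in the first. Its log2 fold change was -1.12 (standard error 0.21), with an adjusted p of 0.196 from limma over all probe sets and 0.0225 among the 13647 brightest. HYH, a bZIP factor related to HY5 that promotes light responses, had 92.6 and 155.4 in the second repeat and 45.7 and 73.6 in the first, a log2 fold change of 0.88 (adjusted p = 0.278 from limma). Among the 13647 brightest its adjusted p was 0.0520 from limma, and it was not called. Neither GI nor HYH was called over all probe sets, of which 13.4% had an unadjusted p under 0.05 from limma. Their part in the repeat difference of the photosystem genes was not tested, and neither the time of day at harvest nor the light at harvest is given by repeat in the sources used here.

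The signals of most plastid-encoded photosystem genes ran opposite to those of the nuclear ones between the repeats. The cause was not tested, nor was how well these plastid signals follow transcript levels. Of 20 such plastid genes, 17 had a positive log2 fold change, second over first repeat, with a median of 0.48. Of all 22746 probe sets 10446 were positive, and of the 5 nuclear photosystem genes, with their median of -0.52, 0 were. The plastid gene psaA encodes a reaction centre protein of photosystem I. It had signals of 304.8 and 258.5 in the second repeat (35S:AtRALF1 and control) and 36.8 and 78.8 in the first. The array medians of that first repeat were 48.5 and 50.5. The log2 fold change of psaA between the repeats, 2.07, was the largest of the 20. The brightest of them, psbM and psbF, had 0.30 and 0.31, and psaJ, psbI and psbK had -0.63, -0.67 and -0.81. With all probe sets tested, limma called 0 of the 33 plastid-encoded photosynthesis genes between the repeats (smallest adjusted p of 0.146). When the 13647 brightest probe sets alone were tested, it called 13 of the 31 tested higher in the second repeat and 0 lower. In that test it called 0 of the 10 nuclear members, beside 282 higher and 468 lower of all 13647. The filter used the mean over all 4 arrays, so a gene could pass it through the second repeat alone. Of the 13, atpH had first-repeat signals of 29.5 and 20.2 (35S:AtRALF1 and control) and psbT 18.7 and 15.2. Both lay under the level that 60% of probe sets exceeded on those arrays (32.0 and 34.6), so the filter favoured their calls. Between the genotypes 16 of the 20 plastid-encoded photosystem genes were below 0, against 55.9% of all probe sets. Their median was -0.15, but it was -0.39 in the first repeat and 0.19 in the second.

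**Figure D5:**
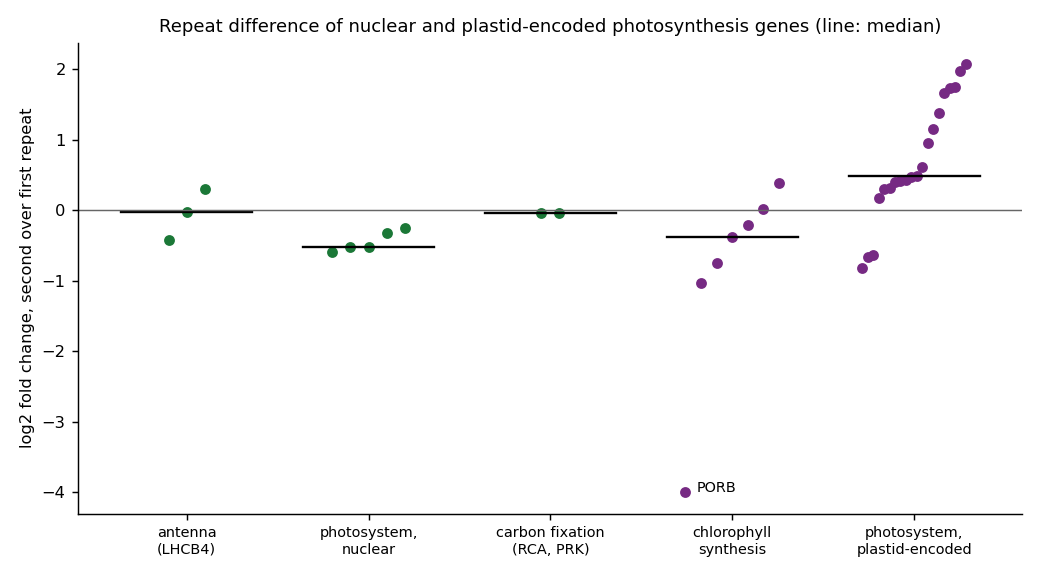
Log2 fold change of the second over the first repeat for each gene (points) and the median of each group (lines), on the log2(signal + 16) scale. Nuclear photosystem genes lie below 0 with a median of -0.52, and plastid-encoded photosystem genes have a median of 0.48.

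Marker genes gave little information on the mixture of organs. Of 20 root markers 3 had a probe set of their own, and their summed signal was 5983 and 4407 in 35S:AtRALF1 and 7277 and 6307 in the control. PYK10, an abundant beta-glucosidase of roots, set that sum (5715 and 4085 against 7079 and 6101). The root hair expansins moved the other way, with EXPA18 at 156.8 and 190.8 in 35S:AtRALF1 against 135.7 and 99.6, and EXPA7 at 111.3 and 130.7 against 62.2 and 107.1. Of 16 shoot markers outside photosynthesis 4 were measured, with summed signals of 188 and 230 in 35S:AtRALF1 and 244 and 193 in the control. None was listed at 0, and CLV3 and SPCH were at 29.9 or below in every array. No marker passed the test, and the part of the mixture of organs in the photosynthesis values was not tested.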

How the data were processed

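Gene expression was measured on 4 Affymetrix arrays, 2 of 35S:AtRALF1 and 2 of control seedlings. The authors deposited 1 signal intensity per probe set on a linear scale, already scaled to a common trimmed mean, so the columns were used as deposited. Their summarization software is not given in the sources, and a scaled signal without detection calls cannot separate low expression from background. Of 22810 probe sets, 64 controls were left out. Values were analysed as log2(signal + 16), with 1 as the lowest signal allowed. The test was that of limma (version 3.58.1, R 4.3.3), a linear model with variances moderated along an intensity trend (two-sided, Benjamini-Hochberg adjustment over all 22746 probe sets, threshold 0.05). The genotype fit had no other term and 2 residual degrees of freedom, and the repeat fit had a term for genotype and 1. The genotype fit was tested on simulated data whose arrays varied independently, without a repeat difference. The repeat fit was not tested on simulated data. The number of arrays limits the precision.

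Genes were named from the platform's probe table (13513 probe sets with 1 gene, of which 13508 matched a RefSeq locus of TAIR10.1, 503 with several and 8730 with none). The members and the gene lists were chosen with earlier results of these data known, so no set test was made. Full values are given to the members with the highest signal and the most extreme differences in each group, which came to all 10, and of other lists to at most 3 genes with the smallest p. Alternatives were other offsets (1 and 64), normalization by quantiles or by cyclic loess, the 60% brightest probe sets, no intensity trend, the replicate block, no term for genotype, and each array left out. Leaving out LHCB4.3 was chosen after seeing the data. Promoter motifs were not analysed here.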

Additional observations from a re-analysis of the deposited data

Results flagged for a closer look

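For 5 genes the 2 arrays of a comparison pointed in opposite directions, and with 1 array per genotype and repeat the difference was not tested. The log2 fold change of 35S:AtRALF1 over control was larger in the second repeat than in the first by 0.25 for LHCB4.1, and differed by -0.092 (second minus first repeat) for PSBW. The log2 fold change of the second over the first repeat differed between 35S:AtRALF1 and control (35S:AtRALF1 minus control) by 0.14 for LHCB4.2, 0.21 for RCA and -0.13 for PRK.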

How the results depend on the processing

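With the 60% brightest probe sets, 1 probe set was called between the genotypes and 750 between the repeats, against 0 in each with all probe sets. In the repeat comparison none of the 10 genes was among them, PSAE-1 coming nearest (adjusted p = 0.0582 from limma). The labels do not say what a shared replicate number stands for, and 2 pairs are too few to settle it from the data, so the genotype fit had no block. Deviations of the arrays with the same number correlated at 0.39 over probe sets, and the standard errors between the genotypes therefore hold the repeat difference too. With the replicate block 1 probe set was called, not a member (1648 at an unadjusted p under 0.05), and the members' adjusted p from limma lay between 0.758 and 0.992 (PSAE-1, 0.799). Between the genotypes, the antenna median turned to 0.03 with quantile normalization and 0.04 with cyclic loess (the values of LHCB4.1, 0.029 and 0.039), and PSBW turned to 0.034 and 0.055. The photosystem median was -0.16 with cyclic loess, and the carbon fixation median -0.19 with quantile and -0.15 with cyclic loess normalization. With an array left out, these medians lay between -0.23 and 0.17 for antenna, -0.44 and -0.020 for photosystem and -0.25 and -0.19 for carbon fixation genes, and single genes that changed sign between -0.32 and 0.22 for LHCB4.1, -0.30 and 0.26 for PSBW and -0.43 and 0.20 for PSBY. An array left out leaves the repeats unbalanced, and its group then has 1 array, taken to vary as the other group does.

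Between the repeats, the antenna median was 0.011 with quantile normalization (LHCB4.2, 0.011), -0.17 with cyclic loess and -0.22 without LHCB4.3. The photosystem median was -0.57 and -0.66 with quantile and cyclic loess, the carbon fixation median -0.18 with cyclic loess, and RCA 0.062 with quantile normalization. With an array left out, which leaves 1 genotype and no test, the range was -0.47 to -0.42 for photosystem and -0.096 to 0.048 for antenna genes (and LHCB4.2), -0.15 to 0.057 for RCA and -0.10 to 0.028 for PRK. The cause was not tested. Signs changed in 10 of 90 values of single genes between genotypes and 8 of 80 between repeats. These values came from the other offsets and normalizations, each array left out and, between genotypes, the replicate block. Between the repeats the smallest adjusted p among them was 0.253 from limma (PSAE-1, cyclic loess). With the 60% brightest probe sets, not counted here, PSAE-1 had 0.0582. Each gene had 1 probe set without a mark for shared probes and a name of photosynthesis, so the alternatives on the choice of probe set left the medians as they were.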

Other observations

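Other nuclear genes of the chloroplast and of photorespiration had few probe sets of their own, and none passed the test in either comparison (limma, adjusted over all probe sets). SBPASE, the Calvin cycle sedoheptulose bisphosphatase, had signals of 2548 and 1794 in 35S:AtRALF1 and 2857 and 2429 in the control, a log2 fold change of -0.30 (standard error 0.30). The other Calvin cycle gene measured, AT1G56190, ran the other way, with 840.8 and 1032 in 35S:AtRALF1 and 760.7 and 990.0 in the control (0.10 between the genotypes and 0.33 between the repeats). ATPC1, the gamma subunit of the chloroplast ATP synthase, had 2848 and 3641 in the second repeat (35S:AtRALF1 and control) and 4894 and 5321 in the first, a log2 fold change of -0.66 between the repeats (adjusted p = 0.350 from limma). LIL3:1, a light-harvesting-like protein, had a log2 fold change of -0.53 between the repeats. AT4G01150 had -0.30 and AT2G26500 0.08, and the median of these 4 thylakoid genes was -0.41. The 3 photorespiration genes measured did not move together. HPR, the hydroxypyruvate reductase of photorespiration, had 2888 and 4237 in 35S:AtRALF1 and 4209 and 5172 in the control, lower in the transgenic array of each repeat, with a log2 fold change of -0.41 between the genotypes (standard error 0.33) and 0.42 between the repeats. AT1G11860 had 1773 and 1644 in 35S:AtRALF1, both below the 2222 and 2598 of the control, and limma gave -0.49 ± 0.24 (log2 fold change ± standard error) at an adjusted p of 0.987. AT1G80380 had 898.3 and 633.3 in 35S:AtRALF1 and 645.4 and 531.6 in the control, higher in the transgenic array of each repeat (log2 fold change of 0.36, standard error 0.27) and at -0.38 between the repeats.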
